A study of Mus musculus with 18 samples.

Results

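The 10 genes described here encode interleukin-10 (IL-10) and its receptor chains (Il10, Il10ra and Il10rb), the receptor chains shared by interleukin-4 and interleukin-13 (Il4ra and Il13ra1), the TGF-beta isoforms (Tgfb1, Tgfb2 and Tgfb3) and the beta subunits that form activins (Inhba and Inhbb). They were chosen by name, with earlier results of these data known, from the 55359 genes counted in each library. Counts of members called, set beside shares of all genes below, are therefore descriptions. RNA was sequenced from 3 tissues of C57BL/6 mice aged 10 weeks: the ankle joint, the spinal cord, and the dorsal root ganglia (DRG), the seat of the sensory neurons that serve the joint. MSU mice had received 100 µl of monosodium urate crystals, the crystals of gout, in the right ankle, and PBS mice the same volume of phosphate-buffered saline, 8 h before the tissue was taken. The protocol in the labels words the route as subcutaneous, into the joint. The sample labels call the PBS mice untreated, whereas the protocol and the column names give PBS. Each tissue had 3 MSU and 3 PBS libraries, 18 libraries in 6 groups, and no other allele, strain or agent separated the groups. Separate animals are not stated for the libraries, and a p-value therefore measures only how far these samples spread, part of which may be technical.

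IL-10 restrains inflammatory gene expression in macrophages and other leukocytes. It binds Il10ra, whose pairing with Il10rb activates JAK1, TYK2 and STAT3, and STAT3 induces genes such as Socs3, Bcl3 and Nfil3. IL-4 and IL-13 act through Il4ra, which pairs with Il13ra1 on many cells or with the common gamma chain Il2rg on leukocytes, and signal through STAT6. TGF-beta isoforms are secreted in latent form, stored on the matrix by Ltbp proteins, released by integrins and sensed by Tgfbr1 and Tgfbr2, which phosphorylate Smad2 and Smad3. Activins are dimers of the Inhba and Inhbb products that reach the same Smads through their own receptors and are neutralised by follistatin (Fst). All these factors are known from the control of joint inflammation and repair.

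Total counts ran from 11632950 to 38812815 per library, and 3 counts, the most that a gene with no count could still have, equalled 0.0773 to 0.258 counts per 1000000 (CPM). These floors cover counting error only. In bulk tissue, fewer cells of a type and less RNA per cell cannot be told apart. The defining markers followed the tissue labels: Krt5, a keratin of the skin, lay at 673 to 1028 CPM in MSU and 1649 to 1918 CPM in PBS ankles and had no count in any DRG library, and Slc32a1, a gene of inhibitory neurons, lay at 154 to 171 CPM in MSU and 146 to 167 CPM in PBS spinal cords. The summed level of 11 neutrophil markers was 3470 to 4304 CPM in MSU ankles and 416 to 1320 CPM in PBS ankles, and 9 of the 11 rose. The DRG libraries stood apart in skeletal muscle transcripts, such as those of Acta1 and Ckm. The summed level of 8 muscle markers was 12470, 1370 and 1340 CPM in DRG MSU libraries 1, 2 and 3, against 229, 136 and 20.9 CPM in DRG PBS libraries 1, 2 and 3. Of the 7 muscle markers tested in the DRG, 1 rose. Prg4, a gene of the synovial lining, lay at 57.9 to 177 CPM in MSU DRG and 5.50 to 32.2 CPM in PBS DRG (adjusted p = 0.0657). Each DRG call of a member is given below also without MSU library 1, which held the most. MSU libraries 2 and 3 also exceeded every PBS DRG library in muscle transcripts. Leaving out library 1 thus does not test the part of muscle RNA.

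In the ankle, 8 of the 10 genes changed. In edgeR's quasi-likelihood test with adjustment over all genes, 7 rose (Il10, Il10ra, Il10rb, Il4ra, Il13ra1, Inhba and Inhbb), against 21.6% of all genes tested that were higher in MSU ankles. Tgfb3 was the 1 that fell, against 21.7% of all genes lower. Tgfb1 and Tgfb2 did not pass. In the DRG, Il10 was too low to be tested and 3 of the other 9 genes rose (Il4ra, Il13ra1 and Inhba), against 16.7% of all genes, while 1 fell (Tgfb2), against 18.7%. In the spinal cord 2 of the 9 genes tested rose (Il4ra and Tgfb3), against 5.6% of all genes, and 0 fell, against 4.07%. In edgeR, Tgfb2 was the 1 cord member lower at an unadjusted threshold of 0.05, and DESeq2 also called 0 members lower there. The median log2 fold change of the tested members was 1.08 for ankles, 0.23 for DRG and 0.24 for cords, beside -0.02, 0.02 and -0.01 for all genes tested in those tissues. Il4ra was called in every tissue, and no other member was.

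**Figure D1:**
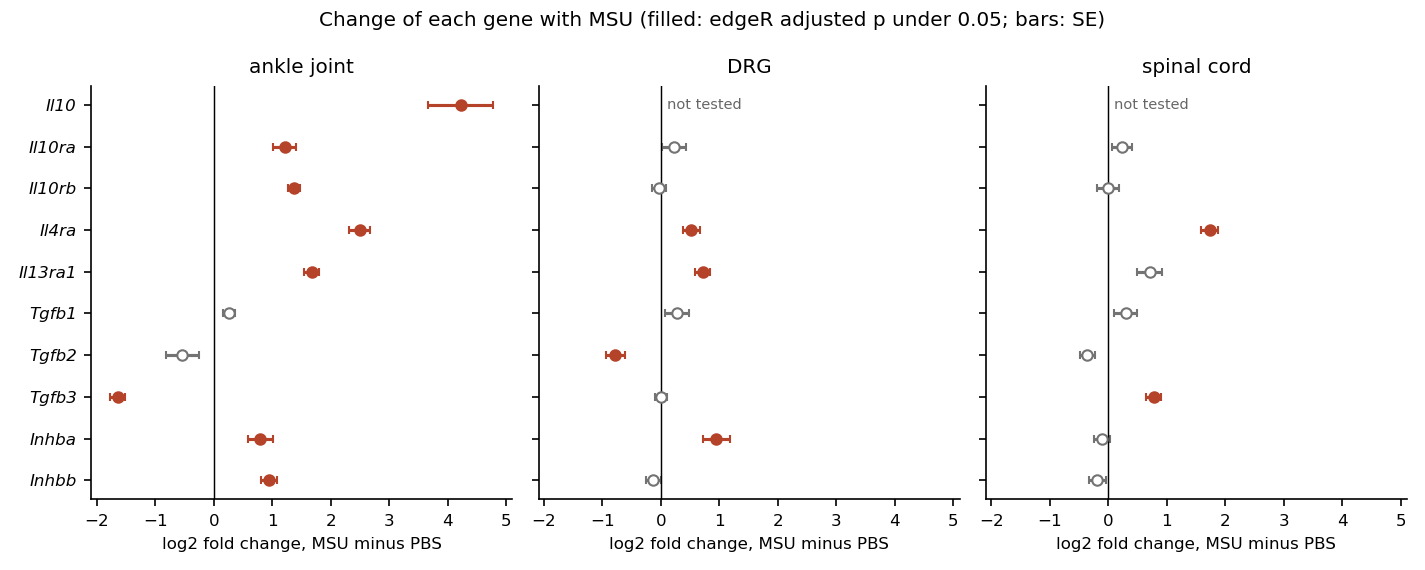
Log2 fold change of each gene in MSU over PBS libraries (x axis, log2 units) in the ankle joint, the DRG and the spinal cord, with the SE as bars and n = 3 libraries a group; filled points passed an edgeR adjusted p of 0.05. Il4ra lies right of 0 in all panels at 2.49, 0.52 and 1.74, and Tgfb3 lies at -1.64 in the ankle and 0.77 in the cord.

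Il10 (ENSMUSG00000016529) was the member with the largest change in the ankle. It stood at 8.27, 14.6 and 12.7 CPM in MSU libraries 1, 2 and 3, from 199, 194 and 135 counts, against 1.02, 0.550 and 0.0688 CPM in PBS libraries 1, 2 and 3, from 42, 14 and 1 counts. The groups were far apart, and the PBS libraries themselves were spread widely. Il10 was 18.7-fold higher (log2 fold change 4.22, SE 0.56, adjusted p = 0.00085), and without PBS library 1 it was 5.01 on the log2 scale (adjusted p = 0.000741). In the DRG Il10 had 3, 0 and 1 counts in the MSU libraries and 2, 3 and 1 counts in the PBS libraries. Its cord counts were 0, 3 and 1 in the MSU libraries and 1, 0 and 0 in the PBS libraries. No library of either nervous tissue exceeded 3 counts, so a change of Il10 was not detectable there at this depth.

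Both chains of the IL-10 receptor rose in the ankle. Il10ra (ENSMUSG00000032089), the chain that binds IL-10 and is found mainly on leukocytes, stood at 83.6, 103 and 142 CPM in MSU ankles and at 49.1, 41.0 and 51.8 CPM in PBS ankles. The groups did not overlap (2.31-fold, log2 fold change 1.21, SE 0.19, adjusted p = 0.00175). Il10rb (ENSMUSG00000022969), the signalling chain shared with the receptors of IL-22 and type III interferons, stood at 55.8, 64.0 and 61.9 CPM in MSU ankles and at 25.3, 23.2 and 21.5 CPM in PBS ankles. Here too every MSU ankle lay above every PBS ankle (2.59-fold, log2 fold change 1.37, SE 0.11, adjusted p = 3.1e-05). The summed level of 12 monocyte and macrophage markers was also higher, at 2431 to 3235 CPM in MSU ankles and 1640 to 1903 CPM in PBS ankles, with 7 of 12 called higher. The part of leukocyte numbers in the rise of these receptor chains was not tested.

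In the nervous tissues the same chains stayed within overlapping ranges. Il10ra lay at 5.67 to 9.21 CPM in MSU DRG and 5.25 to 7.09 CPM in PBS DRG (log2 fold change 0.23, SE 0.20, adjusted p = 0.417), and at 6.04 to 8.05 CPM in MSU cords and 5.78 to 6.56 CPM in PBS cords (0.24, SE 0.17, adjusted p = 0.452). Il10rb averaged 20.5 ± 1.39 CPM in MSU DRG and 21.03 ± 3.46 CPM in PBS DRG (SD, n = 3 each), with a log2 fold change of -0.03 (SE 0.12). Cords averaged 5.11 ± 0.679 CPM of Il10rb with MSU and 5.15 ± 0.557 CPM with PBS (log2 fold change -0.01, SE 0.19). Levels were also set per kilobase of exon on a scale common to the 18 libraries. Il10ra was at 1.96 ± 0.472 times Il10rb in MSU ankles and 2.22 ± 0.365 times in PBS ankles, but at 0.379 ± 0.0953 times in MSU DRG and 0.320 ± 0.0730 times in PBS DRG.

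Genes downstream of the IL-10 receptor moved widely, including where Il10 itself was nearly absent. Of 12 tested genes of IL-10 signal transduction and its targets, 10 rose in the ankle and the other 2 were not called, except that 1 was lower without ankle PBS library 3 or MSU library 2 and with upper quartile scaling. In the DRG 6 of 11 rose and 1 fell, and in the cord 8 of 11 rose and the other 3 were not called. The medians over the tested genes of the list were 2.16, 0.85 and 1.17 on the log2 scale, beside the medians of all genes near 0 given above. Among all genes, 21.6% were higher in ankles, 16.7% higher and 18.7% lower in DRG, and 5.6% higher in cords. In the ankle Bcl3, a nuclear modulator of NF-kB, averaged 148 ± 9.81 CPM with MSU and 22.1 ± 2.76 CPM with PBS (6.69-fold, adjusted p = 2.44e-06). Stat3, the transcription factor the receptor activates, rose 3.2-fold there (adjusted p = 1.44e-05), and Sbno2, a corepressor induced by IL-10, rose 3.92-fold.

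In the DRG the most firmly called genes of that list were Zfp36, whose product speeds the decay of cytokine mRNAs, Dusp1, a phosphatase of MAP kinases, and Nfil3, a transcription factor. Zfp36 averaged 48.8 ± 7.75 CPM in MSU DRG and 8.13 ± 0.997 CPM in PBS DRG (6.01-fold, adjusted p = 1.89e-06), and Dusp1 and Nfil3 rose 2.71-fold and 3.64-fold. In the cord Socs3, the feedback inhibitor of STAT3 signalling, averaged 50.6 ± 6.31 CPM with MSU and 3.52 ± 0.724 CPM with PBS, which is 14.3-fold higher (SE 0.15 on the log2 scale, adjusted p = 4.58e-09). Zfp36 and Sbno2 rose 5.44-fold and 3.07-fold in the cord. These genes also answer other signals, among them other cytokines that act through STAT3, and which signal raised them was not tested. The 1 fall in the DRG was not called without DRG PBS library 1, MSU library 2 or MSU library 3, where the count was 0.

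Of the relatives of IL-10 and their receptors, 8 were tested in the ankle, where 2 rose and 2 fell. These counts are near the shares of all genes in ankles, 21.6% higher and 21.7% lower. The shares higher in DRG and cords were 16.7% and 5.6%. Il20rb, a receptor chain for IL-20 and IL-24 found on keratinocytes, averaged 32.0 ± 3.4 CPM in MSU ankles and 99.5 ± 11.8 CPM in PBS ankles (log2 fold change -1.63, SE 0.12, adjusted p = 2.52e-05), and Il22ra1, the epithelial chain of the IL-22 receptor, averaged 4.68 ± 0.820 CPM in MSU ankles and 16.9 ± 3.99 CPM in PBS ankles (log2 fold change -1.83, SE 0.23). Of 10 keratinocyte markers 7 also fell in the ankle, with summed levels of 6791 to 9340 CPM with MSU and 14610 to 16080 CPM with PBS, and the part of epidermis in these falls was not tested. Ifnlr1, a receptor chain for type III interferons, rose 1.59-fold. The count of rises was 1 without PBS library 3, MSU library 1 or MSU library 2 and with upper quartile scaling, and 4 with DESeq2. In the DRG 1 of 2 tested rose (Il20rb, 3.09-fold), and in the cord 1 of 4 rose (Il19, with 56 counts in MSU and 6 in PBS cords), a count that was 0 without cord PBS library 1 or 2.

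**Figure D2:**
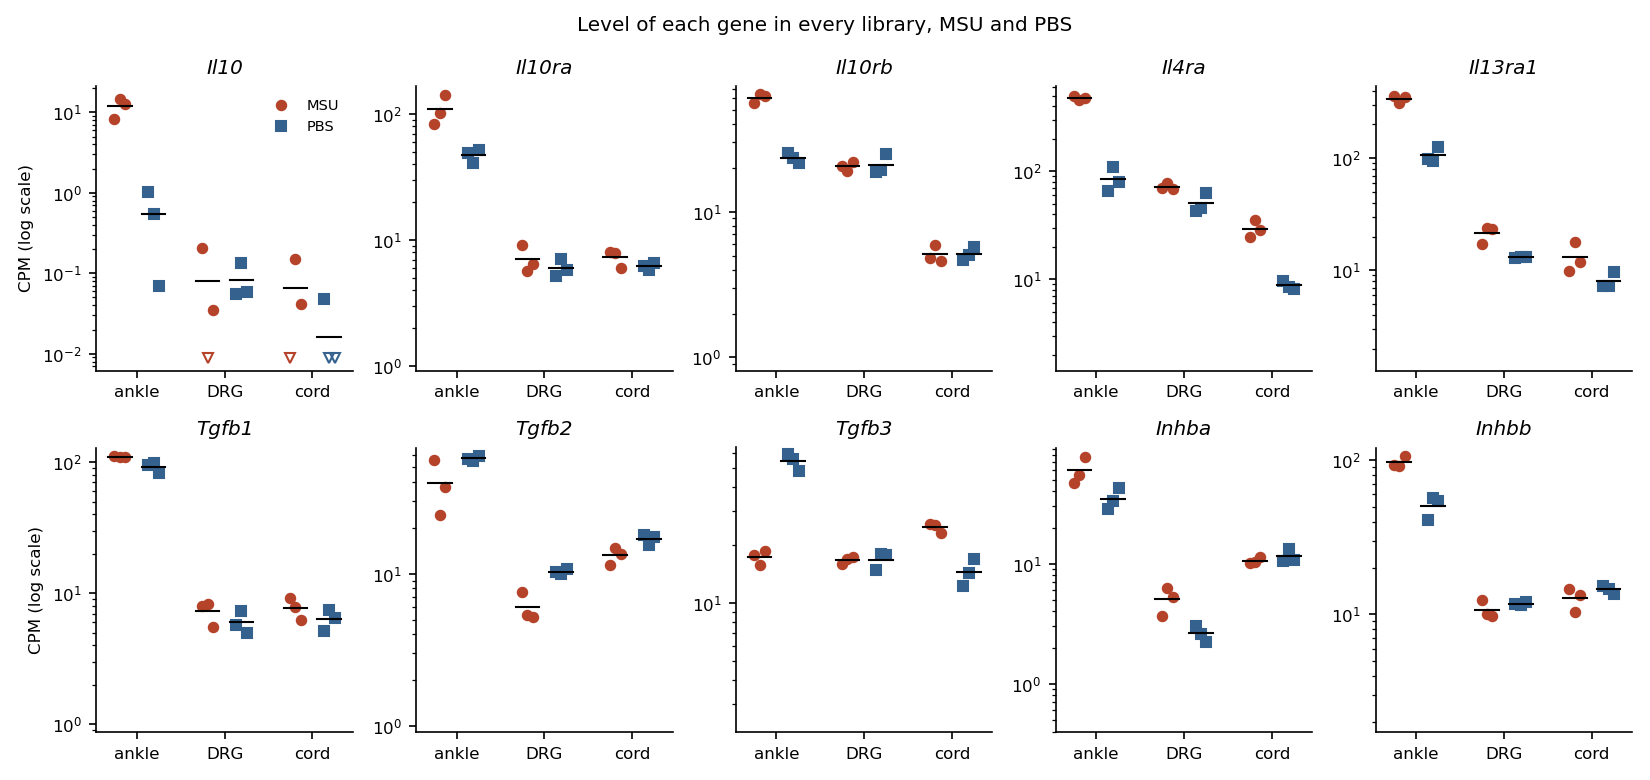
Level of each of the 10 genes in every library (y axis, CPM on a log scale with its own range in each panel) in the ankle joint, the DRG and the spinal cord (x axis); circles are MSU libraries, squares PBS libraries, black lines the mean of 3 libraries, and open triangles at the bottom of the Il10 panel are libraries with no count. MSU ankles lie above PBS ankles without overlap for Il10, Il10ra, Il10rb, Il4ra, Il13ra1, Tgfb1, Inhba and Inhbb, and below them for Tgfb3. For Tgfb2 the ankle groups overlap.

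Il4ra (ENSMUSG00000030748), the chain that IL-4 and IL-13 receptors share, rose in all 3 tissues. In the ankle it stood at 499.5, 458 and 478 CPM in MSU libraries 1, 2 and 3 and at 66.0, 110.0 and 78.9 CPM in PBS libraries 1, 2 and 3. The MSU ankles were tightly grouped and far above the PBS ankles (5.63-fold, log2 fold change 2.49, SE 0.18, adjusted p = 3.08e-05). In the cord it stood at 24.3, 35.4 and 28.6 CPM with MSU and at 9.67, 8.57 and 8.10 CPM with PBS. The lowest MSU cord was well above the highest PBS cord (3.33-fold, log2 fold change 1.74, SE 0.15, adjusted p = 7.82e-06). In the DRG the values were 69.6, 78.1 and 68.6 CPM with MSU and 42.5, 45.9 and 63.3 CPM with PBS. The DRG groups were close but did not overlap (1.43-fold, log2 fold change 0.52, SE 0.14, adjusted p = 0.0247). That DRG call was lost in 5 of the 6 fits that left out 1 library, with adjusted p values of 0.0615 without PBS library 1, 0.0831 without PBS library 2, and 0.0737, 0.0853 and 0.0633 without MSU libraries 1, 2 and 3. The log2 fold change in those 5 fits was 0.40 to 0.55, and it was 0.54 without MSU library 1, the one richest in muscle transcripts.

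Il13ra1 (ENSMUSG00000017057), which binds IL-13 and completes the receptor on cells other than lymphocytes, moved with Il4ra in the ankle and the DRG. In the ankle it stood at 361, 311 and 348 CPM with MSU and at 98.4, 94.9 and 127 CPM with PBS. No MSU ankle came near a PBS ankle (3.19-fold, log2 fold change 1.67, SE 0.13, adjusted p = 2.99e-05). In the DRG it stood at 17.1, 23.9 and 23.2 CPM with MSU and at 12.9, 13.2 and 13.1 CPM with PBS. The PBS DRG were almost level and MSU library 1 was the lowest of the MSU DRG (1.64-fold, log2 fold change 0.72, SE 0.13, adjusted p = 0.00213). Without that library, the one richest in muscle transcripts, the log2 fold change was 0.85 (adjusted p = 4.15e-05). MSU libraries 2 and 3 remained above every PBS DRG library in muscle transcripts, and the part of muscle RNA in the DRG results was not tested. In the cord it stood at 9.82, 17.8 and 11.9 CPM with MSU and at 7.26, 7.32 and 9.72 CPM with PBS, which did not pass (log2 fold change 0.71, SE 0.22, adjusted p = 0.0666). It was called there without MSU library 1 (0.89, adjusted p = 0.0215) and with DESeq2 (adjusted p = 0.0167).

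The balance of the chains differed by tissue. Per kilobase of exon, Il4ra stood at 0.873 ± 0.0339 times Il13ra1 in MSU ankles and 0.506 ± 0.183 times in PBS ankles. The cord ratio was 1.41 ± 0.163 with MSU and 0.688 ± 0.158 with PBS, so that Il13ra1 was the more abundant chain in every PBS cord and Il4ra in every MSU cord. In the DRG the ratio was 2.13 ± 0.355 with MSU and 2.4 ± 0.524 with PBS, within overlapping ranges.

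Promoter windows of Il4ra and Il13ra1 are shown because these chains rose together in the ankle and the DRG. RefSeq windows were found for 6 of the 10 genes (Il4ra, Il13ra1, Tgfb1, Tgfb2, Inhba and Inhbb), from 250 bases before to 50 bases after the start of the gene, in build GRCm38.p6. Both strands were searched for AP-1 (TGANTCA), STAT (TTC and GAA with 3 bases of any kind between them), STAT6 (TTC and GAA with 4 bases between them), NF-kB (GGG and CC with 5 bases between them) and SMAD (CAGACA). Among 32851 windows of the same length in the table, 7.81% held the AP-1 letters, 8.3% the STAT letters, 6.95% the STAT6 letters, 50.8% the NF-kB letters and 21% the SMAD letters. Below, capitals mark matches on either strand in the first 280 bases, of which 30 lie at or after the start. The Il4ra window, chr7:125552021-125552300 on the plus strand, held 1 NF-kB match, which began 20 bases after the start base. The Il13ra1 window, chrX:36111858-36112137 on the plus strand, held 3, which began 114, 42 and 37 bases before the start, and the last 2 of these share bases.
Il4ra: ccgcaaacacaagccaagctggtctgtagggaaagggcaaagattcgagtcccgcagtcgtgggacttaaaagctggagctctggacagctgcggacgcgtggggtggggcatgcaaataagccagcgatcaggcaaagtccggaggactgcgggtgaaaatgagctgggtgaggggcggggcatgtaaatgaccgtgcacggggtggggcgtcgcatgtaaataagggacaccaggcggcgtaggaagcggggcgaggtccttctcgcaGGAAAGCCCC
Il13ra1: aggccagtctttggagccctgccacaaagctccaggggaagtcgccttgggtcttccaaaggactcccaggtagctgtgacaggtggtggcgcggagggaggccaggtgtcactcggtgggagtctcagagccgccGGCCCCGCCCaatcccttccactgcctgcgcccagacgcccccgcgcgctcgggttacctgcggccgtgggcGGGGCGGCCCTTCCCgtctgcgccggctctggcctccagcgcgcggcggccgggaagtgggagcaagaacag
Neither window held an AP-1, STAT, STAT6 or SMAD match. A match is a string of letters and not a shown binding site, and the NF-kB string is found in about as many windows as lack it.

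Other genes of IL-4 and IL-13 signalling rose in part. The shares of all genes higher and lower were 21.6% and 21.7% in ankles, 16.7% and 18.7% in DRG, and 5.6% and 4.07% in cords. Of 10 tested ligands, further chains and transducers, 6 rose in the ankle and 1 fell, and the count of falls was 0 without PBS library 1, MSU library 1 or MSU library 3 and 2 without MSU library 2 or with upper quartile scaling. Jak1 averaged 397.5 ± 9.75 CPM in MSU ankles and 240.1 ± 8.08 CPM in PBS ankles (1.66-fold, adjusted p = 0.000234). Il2rg, the common gamma chain, rose 2.53-fold, and Il33, an alarmin that elicits IL-13 from innate lymphoid cells, 3.06-fold (adjusted p = 0.00347). In the DRG 3 of 8 rose, among them Jak3 (1.61-fold) and Il2rg (2.75-fold), and 2 fell. One of the falls was Il4, at 23.0 ± 2.45 CPM in MSU DRG and 29.8 ± 0.171 CPM in PBS DRG (adjusted p = 0.0100), while Cd3e, a marker of the T cells known to make IL-4, lay at 0.283 to 0.881 CPM in MSU DRG and 0.251 to 0.443 CPM in PBS DRG. This Il4 level is high for a gene of T cells and mast cells, and whether reads of neighbouring genes enter the count was not tested, so the fall is one of the deposited count and not shown to be one of Il4 transcripts. The count of falls was 1 without DRG PBS library 1 or MSU library 3 and 0 without MSU library 2. In the cord 3 of 8 rose, among them Irs2, an adaptor that the IL-4 receptor recruits (1.66-fold), and Jak3 (1.66-fold), while Il33 fell, at 92.95 ± 13.4 CPM with MSU and 134 ± 2.43 CPM with PBS (adjusted p = 0.00304).

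Genes known to be induced by IL-4 and IL-13 did not move one way in the ankle. Of 15 tested there, 5 rose and 4 fell, with a median log2 fold change of 0.00. Among all genes, 21.6% were higher and 21.7% lower in ankles, so the ankle falls are near that share. In DRG 16.7% of all genes were higher and 18.7% lower, and in cords 5.6% were higher. The lectin genes Clec10a and Mgl2, marks of macrophages exposed to IL-4, fell, Clec10a to 27.6 ± 2.7 CPM in MSU ankles against 67.6 ± 7.09 CPM in PBS ankles (adjusted p = 6.11e-05) and Mgl2 to 15.1 ± 4.28 CPM in MSU ankles against 57.2 ± 9.94 CPM in PBS ankles (adjusted p = 0.000275). Ccl11, the eosinophil chemoattractant eotaxin, rose 1.8-fold. In the DRG 5 of 9 tested rose and 1 fell. Clec10a rose there, with 5.83 ± 0.794 CPM in MSU DRG and 1.05 ± 0.458 CPM in PBS DRG (5.42-fold, adjusted p = 0.000261), as did Egr2 (2.39-fold), a transcription factor of both macrophages and Schwann cells, while Postn, a matrix gene, fell. The summed level of the 12 monocyte and macrophage markers was 263.8 to 273.5 CPM in MSU DRG and 110.1 to 190.0 CPM in PBS DRG, with 7 of 12 higher, and its part in these values was not tested. In the cord 2 of 10 rose, Ccl11 (8.39-fold, adjusted p = 0.0439) and Chil3 (5.96-fold, adjusted p = 0.0229), a chitinase-like gene also expressed by neutrophils. That count was 0 without any 1 of the 3 PBS cords, 1 without MSU library 3 and 4 with DESeq2. Neutrophil markers summed to 91.8 to 221 CPM in MSU cords and 71.3 to 84.1 CPM in PBS cords, with 2 of 9 higher, and 5 of 12 monocyte and macrophage markers were higher. Their part in these values was not tested.

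The TGF-beta isoforms did not move together. Tgfb3 (ENSMUSG00000021253), an isoform made by fibroblasts, chondrocytes and neural cells, fell in the ankle and rose in the cord. In the ankle it stood at 17.8, 15.8 and 18.6 CPM in MSU libraries 1, 2 and 3 and at 59.0, 55.7 and 48.3 CPM in PBS libraries 1, 2 and 3. Every MSU ankle was below 20 CPM and every PBS ankle above 40 CPM (log2 fold change -1.64, SE 0.12, adjusted p = 2.34e-05), a level 68% lower with MSU. Markers of keratinocytes, Schwann cells and adipocytes were also lower in MSU ankles (7 of 10, 5 of 7 and 4 of 8 called). The Schwann cell sum was 366.5 to 446 CPM with MSU and 578 to 661 CPM with PBS. Of 10 fibroblast and synovial lining markers 3 were higher and 2 lower. Their sums were 17540 to 26920 CPM in MSU ankles and 16770 to 19460 CPM in PBS ankles. The part of any of these cells in the Tgfb3 value was not tested. In the cord it stood at 25.6, 25.4 and 23.1 CPM with MSU and at 12.2, 14.3 and 17.01 CPM with PBS. All MSU cords lay above all PBS cords (1.71-fold, log2 fold change 0.77, SE 0.13, adjusted p = 0.00147). In the DRG the ranges overlapped, at 15.99 to 17.4 CPM with MSU and 14.8 to 17.8 CPM with PBS (log2 fold change -0.00, SE 0.11, adjusted p = 0.998).

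Tgfb2 (ENSMUSG00000039239), an isoform prominent in development and in neurons and glia, was lower in the DRG. It stood at 7.52, 5.39 and 5.21 CPM in MSU DRG and at 10.3, 10.0 and 10.6 CPM in PBS DRG. The groups were apart (log2 fold change -0.78, SE 0.16, adjusted p = 0.00451), and without MSU library 1 the value was -0.96 (adjusted p = 0.000279). Of 8 sensory neuron markers 5 were also lower. Their sums were 7636 to 8580 CPM in MSU DRG and 9978 to 12010 CPM in PBS DRG. Of 7 Schwann cell markers 4 were higher and 0 lower, and of 7 satellite glia markers 3 were higher and 2 lower. The satellite glia sums were 3233 to 3867 CPM in MSU DRG and 2837 to 3216 CPM in PBS DRG. The part of any of these cells in the Tgfb2 value was not tested. In the cord it stood at 11.3, 14.7 and 13.5 CPM with MSU and at 17.9, 15.4 and 17.3 CPM with PBS, which did not overlap but did not pass (log2 fold change -0.36, SE 0.13, adjusted p = 0.102). In the ankle MSU library 1 differed from the other MSU libraries: Tgfb2 stood at 55.5, 24.4 and 37.0 CPM in MSU libraries 1, 2 and 3 and at 56.3, 54.6 and 59.3 CPM in PBS libraries 1, 2 and 3. The log2 fold change there was -0.53 (SE 0.28, adjusted p = 0.164), and without MSU library 1 it was -0.89 (adjusted p = 0.00599).

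Tgfb1 (ENSMUSG00000002603), the isoform of leukocytes, platelets and endothelium, stood at 110.5, 110.1 and 109 CPM in MSU ankles and at 94.4, 98.6 and 82.0 CPM in PBS ankles. The groups did not overlap, and the difference lay at the threshold (1.2-fold, log2 fold change 0.26, SE 0.09, adjusted p = 0.0510 in edgeR and 0.048 in DESeq2). It averaged 7.26 ± 1.51 CPM in MSU DRG and 5.99 ± 1.17 CPM in PBS DRG (log2 fold change 0.27, SE 0.20, adjusted p = 0.334). Cords averaged 7.75 ± 1.44 CPM of Tgfb1 with MSU and 6.33 ± 1.14 CPM with PBS (log2 fold change 0.30, SE 0.19, adjusted p = 0.394).

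The make-up of the TGF-beta transcripts followed these values. Per kilobase of exon, Tgfb3 made up 15.3 ± 1.04% of the 3 isoforms in MSU ankles and 36.4 ± 1.5% in PBS ankles (SD, n = 3 each), and Tgfb1 made up 65.1 ± 5.78% in MSU ankles and 41.2 ± 1.63% in PBS ankles. The sum of the isoforms was 29.5 ± 3.21 CPM per kilobase in MSU ankles and 41.5 ± 3.12 in PBS ankles. In the cord Tgfb3 made up 65.7 ± 1.06% with MSU and 50.5 ± 3.62% with PBS, and Tgfb2 made up 20.5 ± 2.85% with MSU and 34.7 ± 4.61% with PBS. In the DRG Tgfb3 was the main isoform in both groups, at 66.7 ± 5.004% with MSU and 62.5 ± 2.41% with PBS, and Tgfb2 made up 14 ± 2.65% with MSU and 22.5 ± 1.95% with PBS. Tgfb1 was the main isoform in every ankle library, and Tgfb3 in every DRG and cord library.

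**Figure D3:**
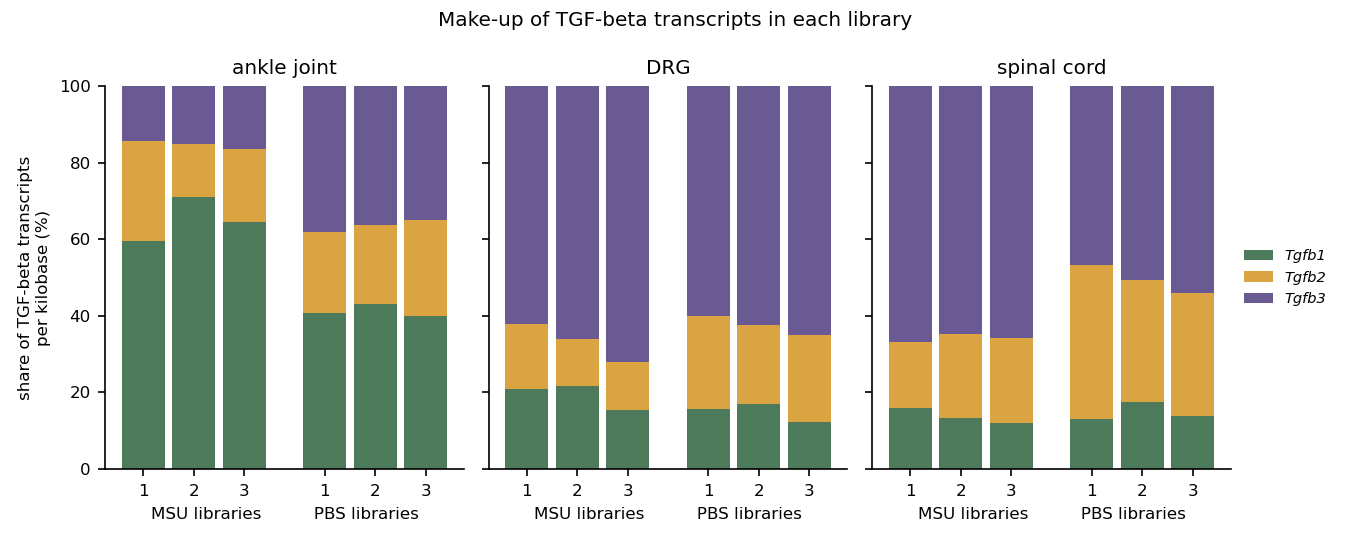
Share of each TGF-beta isoform in the summed level of the 3 isoforms per kilobase of exon (y axis, %), 1 bar per library, MSU libraries 1 to 3 left and PBS libraries 1 to 3 right in each panel, for the ankle joint, the DRG and the spinal cord. The Tgfb3 part is smaller in MSU than in PBS ankles (15.3% against 36.4% on average) and larger in MSU than in PBS cords (65.7% against 50.5%).

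Of 6 receptors and co-receptors for TGF-beta, 3 rose and 1 fell in the ankle. Among all genes, 21.6% were higher and 21.7% lower in ankles, 16.7% higher in DRG and 4.07% lower in cords. Tgfbr1, the kinase chain that phosphorylates Smads, averaged 166 ± 6.71 CPM in MSU ankles and 104.5 ± 7.78 CPM in PBS ankles (1.59-fold, adjusted p = 0.000506). Acvrl1, an endothelial type I receptor, rose 1.79-fold, and Cd109, a co-receptor that dampens the signal, fell to 138 ± 21.5 CPM in MSU ankles against 247 ± 9.99 CPM in PBS ankles. In the DRG 2 of 6 rose, Tgfbr3 (1.47-fold), the co-receptor that presents TGF-beta 2, and Acvrl1 (1.58-fold). In the cord Tgfbr1 was the only 1 of 6 called, and it was lower, at 24.6 ± 0.381 CPM with MSU and 34.05 ± 0.808 CPM with PBS (log2 fold change -0.47, SE 0.09, adjusted p = 0.00346).

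Of 13 genes of TGF-beta storage and activation, 6 rose and 3 fell in the ankle, beside 21.6% of all genes higher and 21.7% lower. Furin, the protease that cleaves the precursor, rose 1.98-fold (adjusted p = 0.000331) and Itgav, the integrin chain that releases TGF-beta from its latent complex, 1.54-fold, while Ltbp4, which anchors latent TGF-beta in the matrix, fell to 295 ± 45.4 CPM in MSU ankles against 514 ± 1.24 CPM in PBS ankles. In the nervous tissues the most firmly called genes of this list were the cell-surface anchors of latent TGF-beta. Lrrc32 (GARP) rose 3.29-fold in the DRG (adjusted p = 0.000629) and 4.46-fold in the cord, with 21.9 ± 3.6 CPM in MSU cords and 4.96 ± 0.582 CPM in PBS cords (adjusted p = 2.16e-06). Nrros, the anchor known from microglia and macrophages, rose 1.79-fold in the DRG and 4.52-fold in the cord, with 18.7 ± 1.38 CPM in MSU cords and 4.19 ± 0.776 CPM in PBS cords (adjusted p = 2.04e-06). Over the list, 3 of 13 rose and 1 fell in the DRG, and 2 of 11 rose and 1 fell in the cord, beside 16.7% of all genes higher and 18.7% lower in the DRG and 5.6% and 4.07% in the cord. The DRG rises numbered 6 without PBS library 3 and 5 with DESeq2. The DRG falls numbered 0 without PBS library 1, PBS library 2, MSU library 2 or MSU library 3 and with upper quartile scaling, and 2 without PBS library 3 or MSU library 1 and with DESeq2. The cord falls numbered 2 without MSU library 2. Of 7 microglial markers in the cord 4 fell, among them P2ry12, at 5.75 to 9.24 CPM with MSU and 18.2 to 19.2 CPM with PBS, while 5 of 12 monocyte and macrophage markers rose, with sums of 189.5 to 324.7 CPM in MSU cords and 128.3 to 170.1 CPM in PBS cords. The part of either in the Nrros values was not tested.

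Of 16 Smads and their regulators, 5 were higher and 5 lower in the ankle, 4 higher and 5 lower in the DRG, and 1 higher in the cord, beside 21.6% of all genes higher and 21.7% lower in ankles, 16.7% and 18.7% in DRG and 5.6% higher in cords. Tgif1 and Skil, which repress Smad targets, rose 2.55-fold and 2.13-fold in the ankle, and Smurf1, a ubiquitin ligase for Smads, fell (log2 fold change -0.58, SE 0.08). In the DRG Smad3 rose 2.85-fold (adjusted p = 0.00279), Skil 1.43-fold, and Smad9, of the BMP branch, fell (log2 fold change -0.76, SE 0.10). In the cord Smad1, also of the BMP branch, rose 1.57-fold, and that count was 2 without MSU library 3. The ankle falls numbered 2 without PBS library 2, PBS library 3 or MSU library 2 and 3 without MSU library 1. The DRG rises numbered 2 without PBS library 2, MSU library 2 or MSU library 3 and with DESeq2, and the DRG falls 3 without PBS library 1, PBS library 2 or MSU library 3 and 2 without MSU library 2.

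Of the genes known to be induced by TGF-beta, 6 of 18 rose and 3 fell in the ankle, 6 of 17 rose and 3 fell in the DRG, and 6 of 17 rose and 1 fell in the cord. The falls in the ankle and the DRG are no more than the shares of all genes called lower there (21.7% and 18.7%). The shares of all genes called higher were 21.6% in ankles, 16.7% in DRG and 5.6% in cords, and 4.07% were lower in cords. Timp1, an inhibitor of matrix proteases, rose 21.5-fold in the ankle, with 543 ± 74.3 CPM with MSU and 25.2 ± 4.67 CPM with PBS (adjusted p = 1.48e-06), and 4.96-fold in the cord. Cdkn1a, a cell cycle inhibitor, rose 2.12-fold in the DRG and 5.23-fold in the cord. The DRG falls numbered 1 without PBS library 2 or MSU library 2. Many of these genes also respond to other inflammatory signals.

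Inhba (ENSMUSG00000041324), the subunit of activin A, rose in the ankle and the DRG. In the ankle it stood at 47.4, 54.9 and 77.7 CPM in MSU libraries 1, 2 and 3 and at 28.3, 33.2 and 42.4 CPM in PBS libraries 1, 2 and 3. The groups did not overlap but came close (1.73-fold, log2 fold change 0.79, SE 0.21, adjusted p = 0.0191). The call was lost without PBS library 1 (adjusted p = 0.0606) or PBS library 2 (adjusted p = 0.0755). In the DRG it stood at 3.66, 6.28 and 5.31 CPM with MSU and at 3.01, 2.61 and 2.25 CPM with PBS. MSU library 1 was the closest to the PBS DRG (1.93-fold, log2 fold change 0.95, SE 0.23, adjusted p = 0.00986). Without that library the log2 fold change was 1.11 (adjusted p = 0.00107), and without MSU library 2 it was 0.77 (adjusted p = 0.0543). In the cord the values were 10.1 to 11.4 CPM with MSU and 10.5 to 13.3 CPM with PBS (log2 fold change -0.11, SE 0.14, adjusted p = 0.700).

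Inhbb (ENSMUSG00000037035), the subunit of activin B, rose in the ankle, where it stood at 93.4, 91.7 and 107 CPM with MSU and at 40.8, 57.0 and 54.3 CPM with PBS. All MSU ankles lay above 90 CPM and all PBS ankles below 60 CPM (1.92-fold, log2 fold change 0.94, SE 0.14, adjusted p = 0.000601). It averaged 10.8 ± 1.42 CPM in MSU DRG and 11.7 ± 0.319 CPM in PBS DRG (log2 fold change -0.13, SE 0.13, adjusted p = 0.470). Cords averaged 12.8 ± 2.26 CPM of Inhbb with MSU and 14.5 ± 0.921 CPM with PBS (log2 fold change -0.19, SE 0.14, adjusted p = 0.486). Per kilobase of exon Inhbb was the more abundant subunit everywhere. In the DRG the share of Inhba was 24.1 ± 6.8% with MSU and 12.98 ± 1.83% with PBS, whereas in the ankle it was 28.8 ± 3.65% with MSU and 31.3 ± 3.15% with PBS.

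The Inhba promoter window is shown because Inhba rose in the ankle and the DRG. It lies at chr13:16011601-16011880 on the plus strand of GRCm38.p6. The capitals mark its 1 match to the NF-kB letters, which began 28 bases before the start.
Inhba: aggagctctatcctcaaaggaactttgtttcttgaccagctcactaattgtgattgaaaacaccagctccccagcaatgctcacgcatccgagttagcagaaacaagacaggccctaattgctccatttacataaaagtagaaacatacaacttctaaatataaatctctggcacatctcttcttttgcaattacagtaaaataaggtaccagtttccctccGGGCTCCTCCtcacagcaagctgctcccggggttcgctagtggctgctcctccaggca
It held no AP-1, STAT, STAT6 or SMAD match, and the Inhbb window held no match to any of the 5 patterns. Tgfb2 had 1 NF-kB and 1 SMAD match and Tgfb1 had 8 NF-kB matches, some of which share bases.

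Of the activin antagonists Fst and Fstl3, only Fst was called higher in the ankle, and only Fstl3 in the DRG and the cord. Fst, the secreted antagonist follistatin, rose in the ankle, with 115 ± 9.79 CPM with MSU and 43.6 ± 2.74 CPM with PBS (2.65-fold, log2 fold change 1.40, SE 0.10, adjusted p = 2.06e-05). Fstl3, a related antagonist, rose 3.21-fold in the DRG, with 8.57 ± 1.07 CPM with MSU and 2.66 ± 0.252 CPM with PBS (adjusted p = 0.000134), and 2.27-fold in the cord (adjusted p = 0.0477). Acvr1b, the main type I receptor of activins, rose 2.39-fold in the ankle and fell slightly in the DRG (log2 fold change -0.25, SE 0.08, adjusted p = 0.0366). Acvr1c, a type I receptor of fat and neuroendocrine cells, fell in the ankle to 1.27 ± 0.451 CPM with MSU against 16.2 ± 3.47 CPM with PBS (log2 fold change -3.66, SE 0.30, adjusted p = 3.27e-05). Of 8 adipocyte markers 4 also fell in the ankle, with summed levels of 852 to 1048 CPM with MSU and 1104 to 1452 CPM with PBS, and the part of fat in the Acvr1c value was not tested. Over the list of activin and inhibin genes beside the members, 2 of 10 rose and 2 fell in the ankle, 2 of 9 rose and 1 fell in the DRG, and 1 of 11 rose in the cord. These counts are near the shares of all genes (21.6% higher and 21.7% lower in ankles, 16.7% and 18.7% in DRG, 5.6% higher in cords). With upper quartile scaling 4 fell in the ankle and 0 rose in the cord. When each library was left out, the fall in the DRG was called only without MSU library 1 and the rise in the cord only without MSU library 2, and DESeq2 did not call Fstl3 in the cord.

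BMPs and growth and differentiation factors, a further branch of the TGF-beta family, had 4 of 20 higher and 8 lower in the ankle. Of all genes tested, 21.6% were higher and 21.7% lower in ankles, 16.7% and 18.7% in DRG, and 5.6% and 4.07% in cords. The ankle rises, and the DRG rises and cord falls given below, are near these shares. Gdf10 fell to 8.21 ± 3.03 CPM in MSU ankles against 88.2 ± 15.4 CPM in PBS ankles (log2 fold change -3.40, SE 0.28, adjusted p = 0.000155), and Chrd, the BMP antagonist chordin, and Bmp6 fell as well (log2 fold changes of -2.04 and -1.38). The ankle rises numbered 2 without PBS library 1 or PBS library 3 and with upper quartile scaling. In the DRG 3 of 17 rose, among them Bmp1 (1.84-fold), a protease that also processes latent TGF-beta complexes, and 2 fell, a count of 1 without PBS library 1, PBS library 2, MSU library 2 or MSU library 3 and with upper quartile scaling or DESeq2. Gdf11 fell in the DRG (log2 fold change -0.91, SE 0.10) and was the 1 of 17 lower in the cord (-0.42, SE 0.09). The cord count was 0 without PBS library 1 and 2 without MSU library 2 or MSU library 3.

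Whether the response differed between tissues was tested for the 9 genes measured in all of them, as the difference of the log2 fold changes in a fit of all 18 libraries. The response was higher in the ankle than in the DRG for 5 of 9 genes, against 14.3% of all genes, and lower for 1, against 18.1%. It was higher in the ankle than in the cord for 5 of 9, against 9.15%, and lower for 1, against 17.6%. It was higher in the DRG than in the cord for 1 of 9, against 3.11%, and lower for 2, against 10.4%. The median difference over all 20757 genes was -0.13, -0.16 and -0.05 for these comparisons. The comparisons share libraries, and the values are therefore given side by side. The fit took the 18 libraries as independent, and whether the tissues came from the same mice is not stated. Some numbers in the deposited column names recur across the tissues and may mark the same mice. No term for the animal was fitted, so any such pairing was ignored in these tests.

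Tgfb3 differed in every comparison, by -1.66 between ankle and DRG (SE 0.18, adjusted p = 1.61e-06), by -2.54 between ankle and cord (SE 0.18, adjusted p = 1.93e-08) and by -0.88 between DRG and cord (SE 0.18, adjusted p = 0.00317). Il4ra responded less in the DRG than elsewhere, with a difference of 1.96 between ankle and DRG (SE 0.25, adjusted p = 2.29e-05) and of -1.33 between DRG and cord (SE 0.27, adjusted p = 0.00366), while ankle and cord differed by 0.63 (SE 0.26, adjusted p = 0.0904). That last difference was 0.93 without ankle PBS library 2 (adjusted p = 0.00478) and 0.845 without cord MSU library 2 (adjusted p = 0.0271), and DESeq2 called it with all libraries (0.72, adjusted p = 0.0286). Il10rb and Inhbb responded more in the ankle than in the DRG, by 1.38 (adjusted p = 1.34e-05) and 1.05 (adjusted p = 0.000379), and than in the cord, by 1.25 and 1.00 (adjusted p = 9.05e-05 and 0.000658).

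Il10ra and Il13ra1 exceeded the DRG response in the ankle by 0.96 and 0.94 (adjusted p = 0.00835 and 0.00858) and the cord response by 0.85 and 0.84 (adjusted p = 0.0232 and 0.0244). The calls against the cord did not hold in every fit: for Il10ra the adjusted p was 0.0693 without ankle MSU library 3, 0.0517 and 0.0559 without cord PBS libraries 1 and 3, and 0.0685 without cord MSU library 3. For Il13ra1 it was 0.0559 without ankle PBS library 1, 0.0526 without ankle MSU library 1, 0.0813 without cord PBS library 3, and 0.0573 and 0.0621 without cord MSU libraries 1 and 3. The adjusted p for Il13ra1 was 0.0802 with no count filter. For Inhba the ankle exceeded the cord by 0.78 (SE 0.27, adjusted p = 0.0398) and the DRG exceeded the cord by 0.95 (SE 0.30, adjusted p = 0.0379). These Inhba differences passed in 14 and 12 of 23 alternative fits, with adjusted p values up to 0.129 and 0.121 when 1 library was left out.

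**Figure D4:**
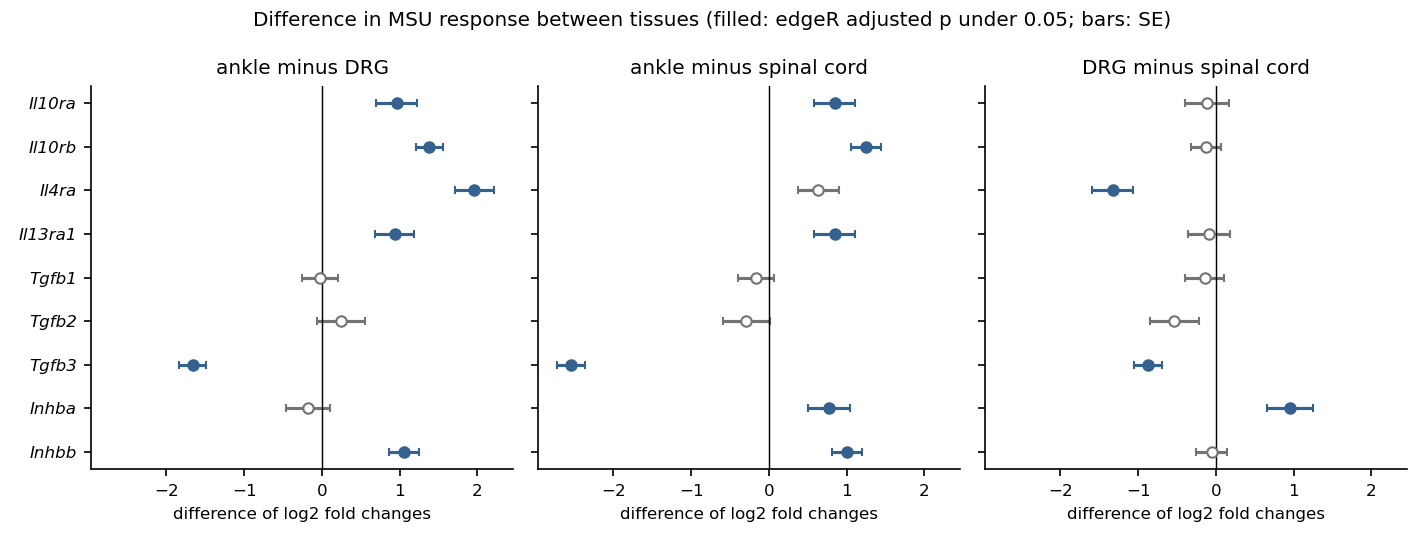
Difference of the MSU response between tissues for the 9 genes tested in all 3 (x axis, first tissue minus second, difference of log2 fold changes), with the SE as bars, from a fit of 18 libraries; filled points passed an edgeR adjusted p of 0.05. Tgfb3 lies left of 0 in every panel, at -1.66, -2.54 and -0.88, and Il4ra lies at 1.96, 0.63 and -1.33.

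Levels were compared between genes and tissues per kilobase of exon, as a description. In MSU ankles the order was Il13ra1 (80.2 ± 7.31 CPM per kilobase), Il4ra (69.9 ± 4.33), Il10ra (27.3 ± 6.93), Inhbb (20.03 ± 1.52), Tgfb1 (19.1 ± 0.523), Il10rb (13.9 ± 0.722), Inhba (8.20 ± 2.01), Il10 (7.90 ± 2.06), Tgfb2 (5.92 ± 2.5) and Tgfb3 (4.504 ± 0.394). In that order the ranges of neighbours overlapped for Il13ra1 and Il4ra, from Il10ra through to Tgfb1, and from Inhba through to Tgfb3. In PBS ankles Il13ra1 also led (27.0 ± 4.07), followed by Tgfb1 (17.1 ± 1.79) and Tgfb3 (15.1 ± 1.68), and Il10 was last (0.394 ± 0.344). In the DRG Il4ra led in both groups (12.7 ± 0.962 with MSU and 9.46 ± 2.14 with PBS), and in the cord Tgfb3 led in both groups (7.43 ± 0.413 with MSU and 4.3 ± 0.718 with PBS). Among PBS libraries, the ankle level was 12.9 times the DRG level for Tgfb1 and 11.1 times for Inhba, but 1.41 times for Il4ra and 0.931 times for Il10rb.

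The genes whose pattern over the 18 libraries was most like that of a member were ranked by Pearson's r of log2 CPM, with each library taken relative to the PBS mean of its own tissue. The libraries share tissues and treatment, and the r values are descriptions. For Il4ra they were Ampd3 (r = 0.981), Sdf2l1 (0.968), Tubb6 (0.965), Ralgds (0.962) and Stx11 (0.960), of 13270 genes. Stx11 had log2 fold changes of 2.84, 0.36 and 2 in the ankle, the DRG and the cord, beside 2.49, 0.52 and 1.74 for Il4ra. For Inhba they were Il33 (0.941), Tsku (0.916), Vcan (0.887), Arnt (0.883) and Ugdh (0.879). Il33 had log2 fold changes of 1.61, 1.83 and -0.53 in the ankle, the DRG and the cord. For Il10 they were Ibtk (0.970), Trap1 (0.962), Cdhr1 (0.960), Pkm (0.959) and Kri1 (0.958), of 13271 genes, a ranking that rests on the ankle because Il10 had almost no counts elsewhere.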

How the data were processed

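Bulk RNA-seq of ankle joint, DRG and spinal cord was taken as the authors deposited it: raw read counts per Ensembl gene, 1 table per tissue, not normalized, with 55359 genes. RNA was extracted with TRIzol, per the labels' protocols. HISAT2, HTSeq 0.11.3, DESeq2 and mm39 are named, per the submitters' processing notes; their roles, the annotation release and the strand setting are not given in the sources used here. Symbols and exon lengths came from GENCODE M21 (GRCm38), so no gene coordinates on mm39 are given, and promoter windows from RefSeq (GRCm38.p6). Without a strand setting, reads of overlapping genes cannot be told apart. In that annotation Il10rb shares 14.9% of its exon bases with Gm21970 (0 counts in the 18 libraries), Il4ra 9.51% with an antisense model (14 counts), Tgfb2 2.14% (8 counts) and Tgfb3 4.82% and 7.6% with Gm37804 and Gm48008 (25 counts each).

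The members and gene lists were chosen with earlier results of these data known. Each tissue was tested alone, 3 MSU against 3 PBS libraries, with edgeR 4.0.16 (R 4.3.3): filterByExpr with a minimum count of 10 and total of 15 (17690, 17008 and 17507 genes in ankle, DRG and cord), TMM, robust quasi-likelihood F test, and Benjamini-Hochberg adjustment over all genes, threshold 0.05. SE is the size of the log2 fold change over the square root of F. CPM use TMM library sizes. Levels per kilobase use 1 TMM scale over 18 libraries. Differences between tissues were interactions in a fit of all 18 libraries and 20757 genes. Of 10 pathway lists, up to 3 called genes per tissue with the smallest p were named, members left out, and 1 such gene is not reported here; marker lists were summed. The nearest genes had a mean of at least 1 CPM, with a prior count of 2.

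Alternatives were RLE and upper quartile scaling, no count filter, DESeq2 1.42.0, each library left out, a replicate block, and 1 fit of 18 libraries. The scripts were tested on simulated data. No library was a copy of another: chi-square per degree of freedom between libraries of a group was 5.69 or more. Protein sequences were not analysed here.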

Additional observations from a re-analysis of the deposited data

Results flagged for a closer look

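All results listed here stand out because the response to MSU differed between tissues in a test of the difference itself (edgeR interaction over 18 libraries). Values are differences of log2 fold changes, first tissue minus second. Ankle minus DRG gave 0.963 for Il10ra, 1.383 for Il10rb, 1.961 for Il4ra, 0.938 for Il13ra1, -1.664 for Tgfb3 and 1.055 for Inhbb. Ankle minus spinal cord gave 0.845 for Il10ra, 1.251 for Il10rb, 0.845 for Il13ra1, -2.542 for Tgfb3, 0.776 for Inhba and 1.004 for Inhbb. DRG minus spinal cord gave -1.328 for Il4ra, -0.878 for Tgfb3 and 0.953 for Inhba.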

How the results depend on the processing

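The number of members called was 7 to 9 in the ankle, 2 to 4 in the DRG and 2 or 3 in the cord when each library was left out, and 6, 3 to 6, and 2 or 3 for ankle minus DRG, ankle minus cord and DRG minus cord. The DRG count was 2 without MSU library 2, and the ankle minus cord count 3 without cord PBS library 3 or cord MSU library 3. All genes called numbered 6232 to 7037, 4051 to 7042 and 1054 to 1870 in ankle, DRG and cord with 1 library left out (7656, 6021 and 1692 with all), the cord count falling to 1054 and 1066 without PBS libraries 1 and 2. The 3 differences gave 5887 to 6800, 4818 to 5690 and 1847 to 3216 genes, 1847 without DRG MSU library 3. Genes higher in MSU were 49.9, 47.2 and 57.9% of the calls in ankle, DRG and cord. With upper quartile scaling the ankle share was 40.6% (median of all genes -0.12), and in the fit of 18 libraries the shares were 39.0, 38.0 and 70.0%. For the differences the main shares were 44.1, 34.3 and 22.9%, with 44.3 (RLE) and 44.7% (DESeq2) for ankle minus cord and 43.5% for DRG minus cord with upper quartile scaling. No called member changed sign in any alternative.

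Sign changes were seen only in uncalled values. In the DRG, Tgfb3 was at 0.0245 with upper quartile scaling, 0.00771 with no filter, 0.0013 with DESeq2 and -0.0844 to 0.0423 with 1 library left out, and Il10rb at -0.107 to 0.109. In the cord, Il10rb was at 0.00674 with no filter, 0.0148 in the fit of 18 libraries and -0.109 to 0.0958 with 1 library left out, and Inhba at -0.165 to 0.00419. For ankle minus DRG, Tgfb1 was at 0.0463 with RLE, 0.0475 with DESeq2 and -0.196 to 0.117 with 1 left out, Inhba at -0.389 to 0.07 and Tgfb2 at -0.139 to 0.565; Tgfb2 for ankle minus cord was at -0.675 to 0.0153. For DRG minus cord, upper quartile scaling gave 0.00112 for Il10ra, 0.0311 for Il13ra1 and 0.0668 for Inhbb, and leaving 1 library out gave -0.316 to 0.0181, -0.267 to 0.167 and -0.198 to 0.0569 for them, -0.281 to 0.027 for Tgfb1 and -0.219 to 0.0106 for Il10rb. The cause of these changes was not tested.

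The fit of 18 libraries ended the DRG call of Il4ra (adjusted p = 0.0852) and called Tgfb2 in the ankle (0.0192) and Il13ra1 in the cord (0.0403), as did the fit with no filter (0.00303 and 0.000174). Same-numbered MSU and PBS libraries of a tissue had r of -0.0495 to 0.171 between their deviations from the group means. With 3 libraries a group, these r cannot show whether the libraries were paired. The numbers used here are the replicate numbers of the sample titles, and the column names number the libraries otherwise. Pairing across tissues was not tested. With the replicate block 8, 4 and 2 members and 7468, 5138 and 1669 genes were called in ankle, DRG and cord. Il10 in the DRG and cord is limited by depth.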
